A study of Mus musculus with 20 samples.

Results

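The comparison described here is of malignant mesothelioma (MM) cell lines grown as flat monolayers (2D culture), 3 from tumors of sarcomatoid histology (m28, m54 and m107) against 3 from tumors of biphasic histology (m5, m12 and m60). The 6 libraries are 6 of the 14 with a column in the expression table, and the series has 20 samples. All genes with at least 1 CPM (counts of a gene per 1000000 reads in protein-coding genes) in at least 3 of the 6 libraries are described, 11630 of 21884. Each of the 6 lines is from a p53+/- mouse of the C57/BL6 strain injected intraperitoneally (young adult males, by the study's methods), with crocidolite asbestos for m5, m12, m28, m54 and m60 and with carbon nanotube for m107. A line is the culture of 1 tumor and has 1 library in 2D, so the 3 libraries of a group are 3 tumors, and the p-values measure the spread between tumors of a group. The line m67, from a WT mouse given crocidolite, has no determined histology, belongs to neither group and is given beside them. Normal mesothelial cells were not analysed here.

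Mesothelium is the epithelial-like sheet that lines the body cavities, and its cells carry both keratins and vimentin. Mesothelioma is classed by the look of its cells, as epithelioid (polygonal, sheet-forming), as sarcomatoid (spindle-shaped, resembling a sarcoma) or as biphasic when both are present. In human tumors the sarcomatoid form is known for lower levels of mesothelial and epithelial markers and for higher levels of mesenchymal genes. The histology is that of the tumor in the mouse. It was taken from the study's summary of its mice, since no sample label gives it, and elsewhere the study calls the organoids of m5 sarcomatoid and those of m12 epithelioid.

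The 6 libraries held 11134018 to 50495836 reads, and the 2 deepest, m5 and m12, are both biphasic. The Y-linked genes Uty, Kdm5d, Ddx3y and Eif2s3y summed to 249 CPM in 2D m5, 78.6 CPM in 2D m60, 55.1 CPM in 2D m54 and 186 CPM in 2D m107, against 0 CPM in 2D m12 and 0.666 CPM in 2D m28, although the mice were male. In the 3D organoid libraries of the same lines the sum was 0 CPM in 3D m5 and 200 CPM in 3D m12, so 2D and 3D go against each other for these lines. Over the tested genes 2D m5 had r = 0.809 with 3D m5 and 0.852 with 3D m67, and 2D m12 had 0.676 with 3D m12 and 0.884 with 3D m54, whereas each of the other 4 lines was nearest to its own 3D library (0.889 to 0.953). Both m5 and m12 are biphasic, and an exchange of the labels m5 and m12 within 2D would leave the groups as they are. An exchange of either within 2D with m67 or with the sarcomatoid m54 would change the groups. Among pairs of 2D libraries m5 and m67 had the highest r, 0.931. Whether any label was exchanged was not tested. Chromosome 10 and the marker, junction, Hox and replication lists are also given with lines left out.

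Mesothelial identity was checked on 12 defining markers, which summed to 1744 CPM in 2D m28, 4892 CPM in 2D m54, 10527 CPM in 2D m107, 3455 CPM in 2D m5, 1046 CPM in 2D m12 and 1376 CPM in 2D m60. Calb2, the gene of calretinin, was under 1 CPM in all 6 libraries, with a highest value of 0.0693 CPM in 2D m54. Macrophage and leukocyte markers summed to 6.59 to 22.5 CPM in the sarcomatoid and 5.90 to 51.0 CPM in the biphasic libraries, with 11 of 16 under 1 CPM throughout, among them Ptprc, the pan-leukocyte gene. Erythroid markers summed to 0.180 CPM or less. Skeletal muscle markers summed to 5.61 to 13.9 CPM in the sarcomatoid and 0.953 to 4.37 CPM in the biphasic lines, which do not overlap, with 9 of 12 under 1 CPM in all 6 libraries. Endothelial markers reached 232 CPM in m107 and 20.8 to 41.3 CPM in the other lines, with Cdh5, which defines endothelium, under 1 CPM throughout. The part of these cell types in the differences below was not tested.

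With limma and edgeR no gene passed the test between the histologies, and with DESeq2 49 genes did. With limma on log2(CPM + 1), two-sided and adjusted by the Benjamini-Hochberg method over the 11630 genes, 0 genes (0%) passed an adjusted p of 0.05, and the smallest adjusted p was 0.994. At an unadjusted p under 0.05 stood 507 genes, 210 higher in the sarcomatoid lines (1.81% of the tested genes) and 297 lower (2.55%). On the recovered reads the quasi-likelihood test of edgeR also passed 0 genes, with 491 at an unadjusted p under 0.05. DESeq2 passed 49 genes (0.421%), 35 higher and 14 lower in the sarcomatoid lines, with 769 at an unadjusted p under 0.05. In 43 of these 49 the 3 sarcomatoid and 3 biphasic values did not overlap. Across all tested genes the groups did not overlap for 429 with the sarcomatoid lines higher (3.69%) and 699 with them lower (6.01%). Every limma difference below is sarcomatoid minus biphasic on the log2(CPM + 1) scale, has an adjusted p of 0.994 or more, and is a description of these 6 tumors. This scale understates the difference of genes near 0 CPM.

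Histology accounted for 18.3% of the variance in log2(CPM + 1) summed over the tested genes, where 1 of the 5 degrees of freedom would take 20% of it with no effect. Pearson correlations over the tested genes were 0.821 to 0.905 in the 3 pairs within the sarcomatoid group, 0.861 to 0.913 in the 3 pairs within the biphasic group, and 0.813 to 0.922 in the 9 pairs between them. The sarcomatoid m54 was nearest to the biphasic m5 (r = 0.922), and the biphasic m60 was nearest to m54 (r = 0.920). Each r is taken across genes of a pair of libraries, and genes do not count as replicates. The first principal component, 35.6% of the variance, set the sarcomatoid m28 and m107 at its opposite ends, at -60.1 and 80.5. Among the lines with known histology the most unlike pair was m12 and m107, and 2 sarcomatoid lines, m28 and m107, came next (r = 0.821).

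**Figure D1:**
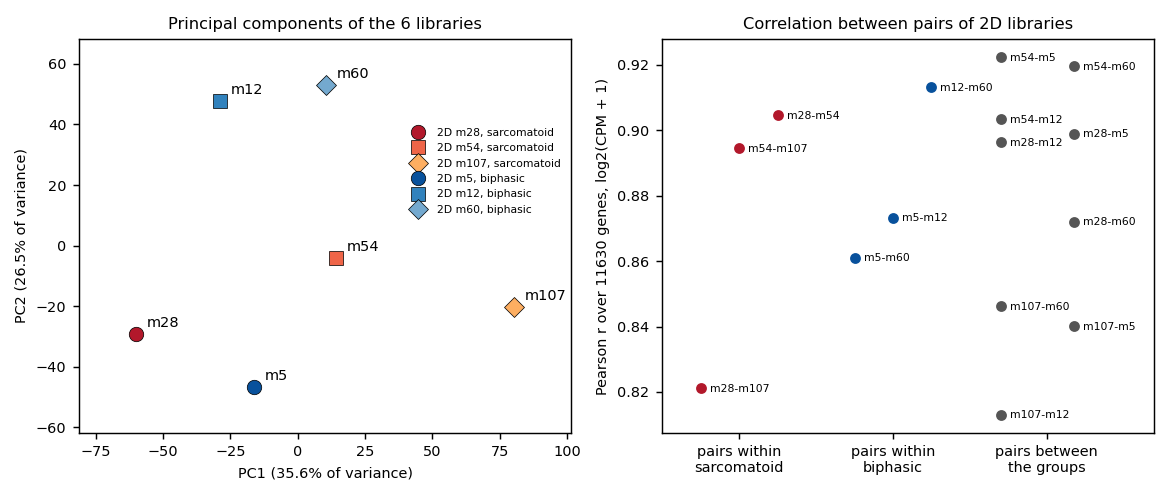
Left, scores of the 6 libraries on the first and second principal components of log2(CPM + 1), with sarcomatoid lines in red to orange and biphasic lines in blue. Right, Pearson r for each pair of libraries. The pairs within a histology (0.821 to 0.913) lie inside the range of the pairs between them (0.813 to 0.922).

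The genes nearest to a clean split in the upward direction were a mixed set of adaptor, matrix, junction and signalling genes. By a rule on p and on groups that do not overlap, 15 genes were taken in each direction from 389 candidates higher and 644 lower in the sarcomatoid lines. Crip2, a LIM-domain protein gene, had the smallest p of those higher. It stood at 200.2, 230.4 and 244 CPM in m28, m54 and m107 and at 105, 102 and 88.8 CPM in m5, m12 and m60, a difference of 1.18 (standard error 0.20, unadjusted p = 0.000631 by limma). The groups were at 225 ± 22.3 and 98.6 ± 8.66 CPM (SD, n = 3 each), and that they are apart follows from the rule. From the same 6 libraries the DESeq2 adjusted p was 7.79e-05 and the limma adjusted p 0.994. Frmd4b, a scaffold of epithelial junction assembly, was at 339.5, 236 and 334 CPM in the sarcomatoid and 123, 118 and 138 CPM in the biphasic lines.

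Loxl1 (chromosome 9 of GRCm39, 58195014 to 58220495, minus strand), a lysyl oxidase-like enzyme that cross-links elastin, had the largest difference of the genes taken as higher. Its values were 399, 328 and 723 CPM in m28, m54 and m107 against 17.2, 112 and 23.3 CPM in m5, m12 and m60. The lowest sarcomatoid line lay above the highest biphasic line, m12. The difference was 3.63 (standard error 0.70, 95% interval 1.99 to 5.28), and the mean was 9.51-fold higher in the sarcomatoid lines. In the 3D libraries of the same lines the order held, with 394, 129 and 174 CPM against 0.429, 0.0927 and 60.4 CPM.

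S1pr5, a receptor for sphingosine 1-phosphate, was at 24.5, 7.90 and 32.6 CPM in the sarcomatoid lines and at 1.72, 1.29 and 1.90 CPM in the biphasic lines, a difference of 2.91 (standard error 0.55). Auts2, a nuclear regulator known from neuronal development, was at 14.1, 5.68 and 14.9 CPM against 0.515, 1.69 and 0.444 CPM, while 2D m67 had 17.8 CPM. Thus m67 was above all 6 lines for Auts2, and below all 6 for S1pr5 at 0.820 CPM. Krt19, a keratin of simple epithelia and of mesothelium, was at 248, 1063 and 593 CPM against 144, 53.8 and 64.6 CPM, a difference of 2.75 (standard error 0.59). All 3 sarcomatoid lines were above all 3 biphasic lines for this keratin in 2D, but in 3D the values overlapped, with 2493 CPM in 3D m12.

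Pkp2, a plaque protein of desmosomes, was at 92.6, 54.5 and 87.3 CPM against 37.5, 28.4 and 26.9 CPM. Nedd9, a scaffold of focal adhesion signalling, was at 63.9, 64.9 and 106 CPM against 37.9, 22.2 and 26.6 CPM. Tfeb, a transcription factor of lysosome genes, was at 49.4, 47.2 and 55.6 CPM against 20.9, 26.4 and 18.2 CPM, so its biphasic lines reached at most 26.4 CPM. The other genes taken as higher were Ccser2, Lpcat4, Nebl, Thsd4, Rhbdl3 and Card19, with differences of 1.17 for Lpcat4 to 2.74 for Rhbdl3. Of all 15, Ccser2 and Loxl1 also had groups that did not overlap, in the same direction, in 3D, where 5.34% of all tested genes did. Krt19 alone of the 15 had a 3D difference below 0, at -0.53.

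**Figure D2:**
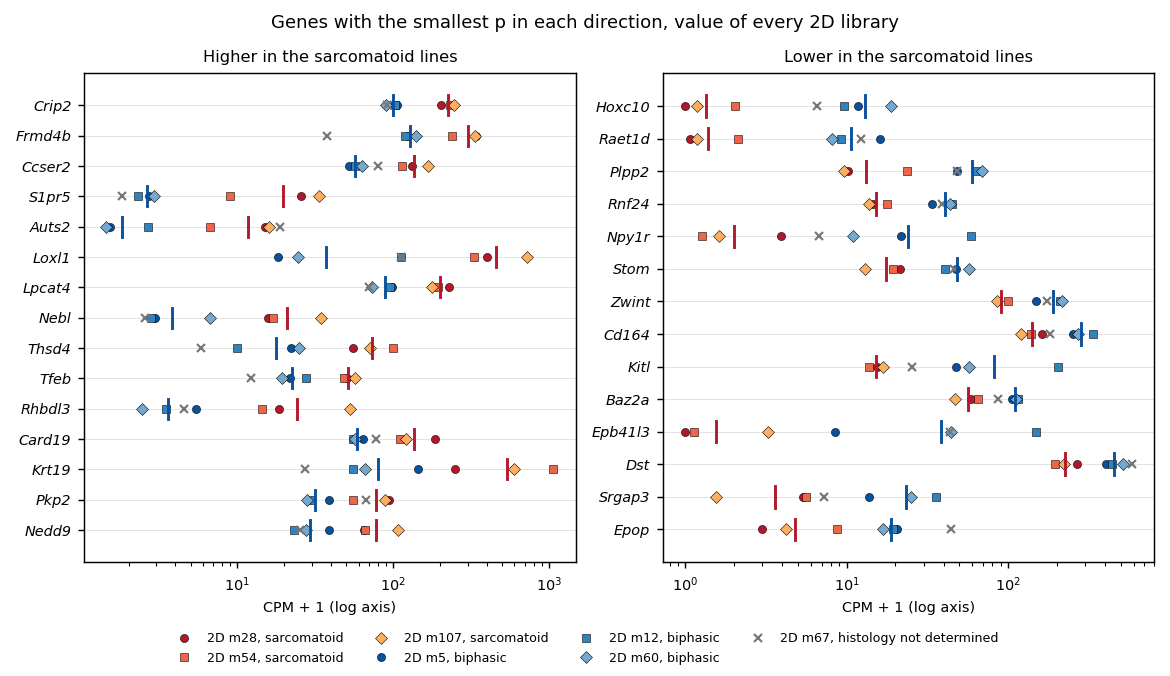
CPM + 1 on a log axis in each 2D library for the genes reported here of the 15 with the smallest limma p in each direction among those with a mean of at least 5 CPM and groups that do not overlap. Vertical bars are the group means on the log scale, and grey crosses are m67. Hoxc10 is at 0 to 1.04 CPM in the sarcomatoid and 8.65 to 17.8 CPM in the biphasic lines.

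Among the genes lower in the sarcomatoid lines the smallest p belonged to Hoxc10 (chromosome 15, 102875134 to 102880330, plus strand), a homeobox factor of posterior body identity. It stood at 0, 1.04 and 0.180 CPM in m28, m54 and m107 and at 10.8, 8.65 and 17.8 CPM in m5, m12 and m60, a difference of -3.27 (standard error 0.47, unadjusted p = 0.000237 by limma). The biphasic lines all carried the transcript and the sarcomatoid lines were at or near 0 CPM, where 0 reads in m28 allow up to 0.200 CPM. In 2D m67 it was at 5.55 CPM. In 3D the pattern held for m28 (0.0770 CPM), m54 (1.11 CPM), m107 (0.433 CPM), m5 (9.95 CPM) and m60 (12.2 CPM), but 3D m12 had 0 CPM.

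Raet1d, a ligand of the NKG2D receptor of natural killer cells, was at 0.0666, 1.11 and 0.180 CPM against 15.2, 8.21 and 7.10 CPM. It belongs to a family of near-identical copies among which reads can be split, so its level is uncertain. Kitl, the ligand of the receptor Kit, was at 14.3, 12.7 and 15.7 CPM in the sarcomatoid lines and at 46.9, 202 and 56.5 CPM in the biphasic lines, a difference of -2.44 (standard error 0.55). The 3 sarcomatoid lines were alike for Kitl, and m12 stood above the other biphasic lines. Its groups did not overlap in 3D either, at 19.8, 19.3 and 20.5 CPM against 46.1, 123 and 78.6 CPM.

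Npy1r, a receptor of neuropeptide Y, was at 2.93, 0.277 and 0.629 CPM against 20.8, 58.0 and 9.89 CPM. Epb41l3, which links membrane proteins to the actin skeleton, varied widely inside the biphasic group, with 7.45, 149 and 43.0 CPM in the biphasic lines and 0, 0.139 and 2.25 CPM in the sarcomatoid lines. Dst, a large linker of cytoskeletal filaments, was at 268, 194 and 219.8 CPM against 407, 443 and 513 CPM, and its mean was 2.00-fold higher in the biphasic lines. Stom, a membrane protein gene, was at 20.4, 18.4 and 12.04 CPM against 46.7, 39.6 and 56.3 CPM. Also taken as lower were Plpp2, Rnf24, Zwint, Cd164, Baz2a, Srgap3 and Epop, with differences from -0.98 for Baz2a to -2.70 for Srgap3. In 3D, Plpp2, Stom and Kitl were lower in all 3 sarcomatoid libraries than in all 3 biphasic ones, as were 5.11% of all tested genes. Of the genes taken as lower, Rnf24 and Srgap3 alone had a 3D difference above 0, at 0.26 and 0.28.

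Genes on chromosome 10 were on average lower in the sarcomatoid lines along the whole chromosome. Of the 15 genes taken as lower, 7 lie on it, among them Raet1d, Plpp2, Zwint, Cd164, Kitl and Baz2a. Of its 563 tested genes, 524 (93.1%) had a difference below 0, against 53.3% on the other chromosomes, and its median difference was -0.60, against -0.03 over the genes off chromosome 10. It held 4.84% of the tested genes and 47.1% of those at an unadjusted p under 0.05 in the lower direction, 140 of 297. That share was not stable, at 82 of 398 without m5, 41 of 123 without m12, 72 of 275 without m54, 189 of 409 without m28 and 26 of 220 without m5 and m12. As percentages it was 20.6% without m5, 26.2% without m54, 33.3% without m12, 40.7% without m107, 46.2% without m28, 46.3% without m60 and 11.8% without m5 and m12. With all 6 lines the 140 genes were 24.9% of the chromosome's tested genes, where all tested genes gave 2.55%. Off chromosome 10 the counts were 157 lower and 209 higher among 11067 genes. The chromosome was singled out after these values were seen.

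By library, the median deviation of chromosome 10 genes from the mean of the 6 libraries was -0.11 in m28, -0.26 in m54 and -0.45 in m107, and 0.33 in m5, 0.42 in m12 and 0.11 in m60. It was taken over 454 genes with a mean of at least 10 CPM, with the library's own median over all such genes at 0. The groups did not overlap, m28 and m60 lay nearest to each other, and m67 was between them at -0.06. In 7 windows of 20 Mb along the chromosome, with 36 to 113 genes each, the sarcomatoid mean was lower in 7, by -0.51 to -0.70. By line, the groups overlapped in window 6, with m28 at 0.08 and m60 at 0.004. In window 3 m60 was at 0.007. The median difference stayed between -0.53 and -0.66 when any 1 line was left out, and was -0.48 without both m5 and m12.

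On 2 of 20 chromosomes the libraries' medians did not overlap between histologies, chromosome 10 and, by a gap of 0.01, chromosome 8. Chromosome 13 had a median difference of 0.38 and 71 genes with all sarcomatoid lines higher against 1 with all lower, but its medians overlapped by library, at 0.65 in m28, -0.10 in m54 and 0.23 in m107 and at -0.44 in m5, 0.01 in m12 and -0.27 in m60. In the 3D libraries chromosome 10 stood at -0.10 in m28, 0.23 in m54 and -0.28 in m107 and at -0.09 in m5, 0.24 in m12 and 0.13 in m60, so its groups overlapped there, through m54. These are RNA levels, measured once per line.

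**Figure D3:**
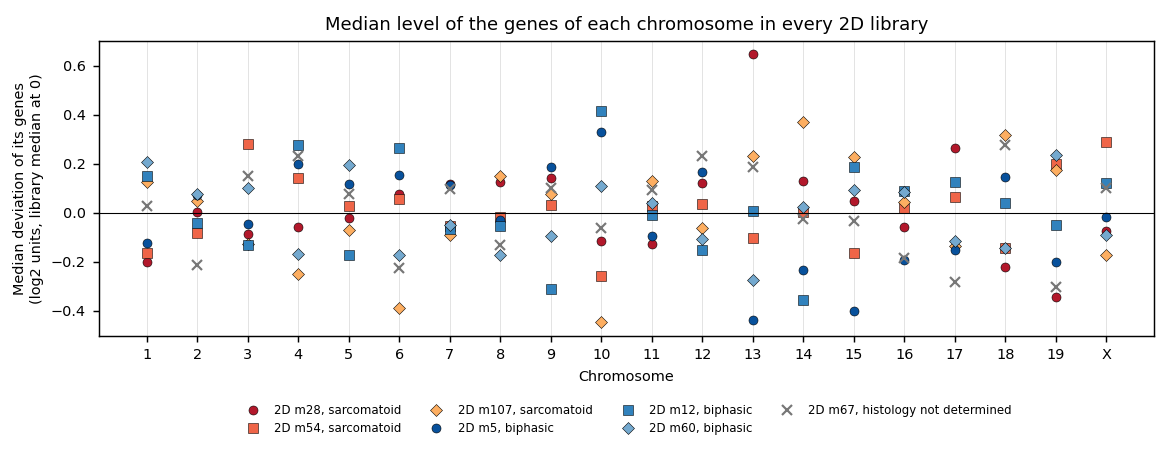
Median deviation (log2 units) of the genes of each chromosome from the mean of the 6 libraries, per 2D library, with the median of each library over all genes at 0. On chromosome 10 the sarcomatoid lines lie at -0.45 to -0.11 and the biphasic lines at 0.11 to 0.42, while on 18 of 20 chromosomes the groups overlap.

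Mesothelial and epithelioid markers leaned towards higher values in the sarcomatoid lines. Of the 28 listed genes 24 were tested, 19 with a difference above 0 and 5 below, and the median difference was 1.58, against -0.05 over all tested genes. At an unadjusted p under 0.05 were 6 higher (Wt1, Upk1b, Gpm6a, Nkain4, Krt19 and Ppl) and 0 lower, and 0 passed the adjusted threshold. All tested genes gave 1.81% higher and 2.55% lower at the unadjusted p. The count of the list's members at p under 0.05 was 12 without m28, 9 without m5, 3 without m12, 3 without m54, 2 without m60 and 2 without m107. The lean rested on the lines unequally. The biphasic m5 was among the lines with high values and the sarcomatoid m28 had the lowest median level of the list of all 6 libraries, 4.14 on the log2(CPM + 1) scale, against 7.74 in m54, 8.42 in m107, 7.37 in m5, 5.39 in m12 and 5.87 in m60. The median difference was 1.12 without m107, 1.29 without m54, 1.41 without m12, 1.51 without m60, 2.32 without m5 and 2.35 without m28. In that order 17, 16, 19, 18, 18 and 24 of 24 genes were above 0.

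Wt1, the Wilms tumor transcription factor that marks mesothelium, was at 314, 413 and 957 CPM in m28, m54 and m107 and at 225, 170.0 and 149 CPM in m5, m12 and m60. The groups did not overlap, and the difference was 1.48 (standard error 0.43, unadjusted p = 0.0112 by limma). Wt1 was lower still in m67, at 53.6 CPM. In the study's staining of the tumors, WT1 protein was positive for m28, m107 and m5 and negative for m54, m12 and m60. Msln, the gene of mesothelin, was at 79.9, 480.4 and 418 CPM against 368, 13.9 and 109.6 CPM, so the groups overlapped, with the highest values in m54, m107 and m5. Mesothelin staining of the tumors was positive for m28, m54, m107 and m5 and negative for m12 and m60. Staining is of protein in tissue, and the values here are of RNA in culture. Upk3b, an uroplakin that marks mesothelial cells, was at 683, 1410.3 and 4956 CPM against 1128, 335 and 265 CPM. Its relative Upk1b followed, at 301, 669.8 and 1218 CPM against 449.8, 97.3 and 139.5 CPM.

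Gpm6a, a membrane glycoprotein gene that marks mesothelium, was at 209, 346 and 803 CPM against 343, 27.4 and 32.3 CPM. Muc16, the gene of the CA125 mucin, was at 15.1, 65.9 and 102 CPM against 36.4, 10.5 and 4.25 CPM. For both, m5 was within the sarcomatoid range and m12 and m60 were below it. For the simple keratins m28 stood apart from the other lines. Krt8 was at 1.53 CPM in m28, 422 CPM in m54 and 772 CPM in m107, and at 273, 73.1 and 333 CPM in m5, m12 and m60. Its partner Krt18 was at 2.86, 196 and 336 CPM against 109, 46.9 and 242 CPM. Pdpn, the gene of podoplanin, was at 1.27 CPM in m28 and 150.4 to 299 CPM in the other 5 lines, and Efemp1, the gene of fibulin-3, was at 1.07 CPM in m28 and 188 to 316 CPM in the others. The line m28 was thus low in 4 markers, Krt8, Krt18, Pdpn and Efemp1, that the other lines carried.

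The mesenchymal genes and regulators of epithelial-mesenchymal transition (EMT) showed no common direction. Of 30 listed genes 27 were tested, 14 with a difference above 0 and 13 below, with a median of 0.03. At an unadjusted p under 0.05 were 1 higher (Dcn) and 0 lower, against 1.81% and 2.55% of all tested genes. Vim, the gene of vimentin, was at 2805, 2250.3 and 1076 CPM in the sarcomatoid lines and at 2115, 4519 and 2430.4 CPM in the biphasic lines, lowest in m107 and highest in m12. Fn1, the gene of fibronectin, was at 3762, 11488 and 5838 CPM against 4377, 11594 and 9861 CPM. Zeb1, a repressor of epithelial genes, varied little, at 44.0, 33.5 and 41.7 CPM against 41.3, 34.2 and 34.2 CPM.

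The EMT transcription factors Snai2 and Twist2 were highest in the biphasic m12 and m60. Snai2 was at 28.04, 13.5 and 6.11 CPM in the sarcomatoid lines against 6.24, 78.0 and 48.9 CPM in m5, m12 and m60. Twist2 was at 2.46, 8.59 and 2.96 CPM against 0.673, 49.0 and 88.6 CPM, and Pdgfrb, a receptor of mesenchymal cells, was at 8.19, 26.8 and 17.2 CPM against 3.19, 175 and 59.0 CPM. For these 3 genes m5 was the lowest of the 6 libraries or, for Snai2, next to the lowest. Without m5 the list had 10 genes above 0 and 17 below, with a median of -0.51. Loxl2, another lysyl oxidase-like enzyme, was the only tested member of the list whose groups did not overlap, at 309, 307 and 285 CPM against 246, 104 and 226 CPM. Of all tested genes 3.69% were higher in the sarcomatoid lines without overlap.

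**Figure D4:**
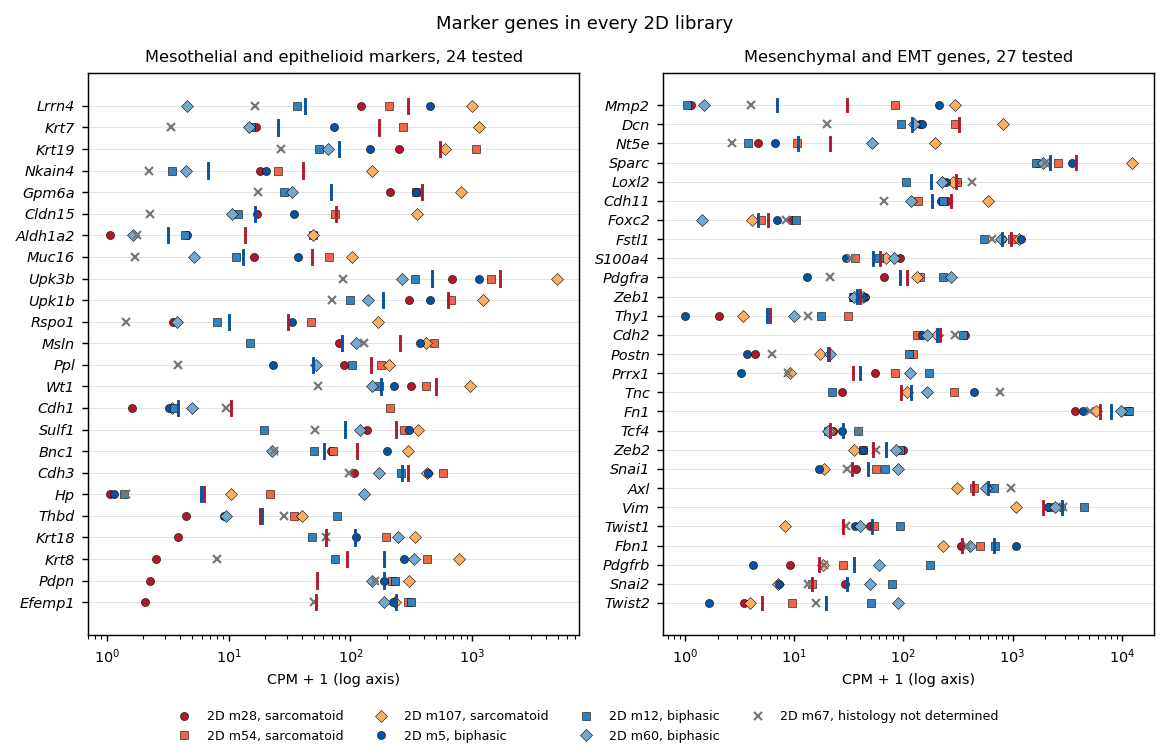
CPM + 1 on a log axis in each 2D library for the 24 tested mesothelial and epithelioid markers and the 27 tested mesenchymal and EMT genes, ordered by the difference between the groups. Vertical bars are group means on the log scale. The groups do not overlap for Wt1, Krt19 and Loxl2 alone, all higher in the sarcomatoid lines, as are 3.69% of all tested genes.

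The log2 ratio of Cldn15 to Vim is used in human mesothelioma to order tumors from epithelioid (high) to sarcomatoid (low). Here it was -7.35 in m28, -4.91 in m54 and -1.62 in m107, and -5.94 in m5, -8.57 in m12 and -7.83 in m60. The sarcomatoid mean was 2.82 higher, at -4.63 ± 2.87 against -7.45 ± 1.36 (SD, n = 3 each), and the groups overlapped. An exact two-sided permutation test over the 20 assignments of the 6 libraries gave p = 0.2, where the smallest p it allows is 0.1. The difference rested most on m107, and without it was 1.32. In m67 the ratio was -10.3.

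Genes of cell junctions leaned the same way as the mesothelial markers. Of 28 claudin, tight junction and desmosome genes 15 were tested, 12 with a difference above 0 and a median of 1.22. At an unadjusted p under 0.05 were 4 higher, among them Pkp2, Jup and Cgn, and 1 lower (Cldn12). All tested genes gave 1.81% higher and 2.55% lower at that p. The median was lowest without m12, at 0.84, and highest without m5, at 1.52, and the count at p under 0.05 in either direction was 3 to 9 when 1 line was left out. Jup, the gene of plakoglobin, was at 205, 211 and 469 CPM against 140.3, 117 and 57.7 CPM. Cgn, a cytoplasmic plaque protein of tight junctions, was at 68.9, 136 and 63.3 CPM against 47.3, 15.6 and 30.7 CPM. Neither Jup nor Cgn overlapped between the groups in 2D, and both did in 3D. In 2D 3.69% of all tested genes were higher in the sarcomatoid lines without overlap. Cldn12, a claudin, was at 47.2, 68.1 and 56.0 CPM against 70.4, 92.0 and 98.7 CPM. The gut and duct epithelium markers summed to 250.3, 1275 and 647 CPM in the sarcomatoid lines against 169, 59.2 and 76.0 CPM, with 8 of 15 under 1 CPM in all 6 libraries, and most of that sum was Krt19. Without Krt19 the sums were 2.13, 213 and 54.4 CPM against 25.5, 5.40 and 11.3 CPM, and overlapped. Cdh1, the gene of E-cadherin, made 208 CPM of the sum in m54 and was 0.599 to 3.99 CPM in the other 5 lines. In bulk libraries fewer cells of a type and less RNA per cell cannot be told apart.

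Collagens were split between the directions. Matrix proteases and their inhibitors were mostly lower in the sarcomatoid lines, with 20 of 26 below 0, where 55.2% of all tested genes were. The 23 fibrillar and network collagens had a median difference of 0.19. At an unadjusted p under 0.05 were 1 higher (Col4a5) and 2 lower (Col8a1 and Col12a1), against 1.81% and 2.55% of all tested genes. Col4a5, a basement membrane collagen, was at 311, 411 and 464 CPM against 285, 166 and 103.2 CPM. Among genes of collagen processing and elastic fibres, Loxl1, Loxl2 and Loxl3 differed in direction. Loxl1 and Loxl2 were higher in all 3 sarcomatoid lines, and Loxl3 was lower, at 17.3, 25.3 and 32.8 CPM against 38.4, 80.3 and 63.4 CPM (difference -1.22, standard error 0.37). Ltbp1, which holds latent TGF-beta in the matrix, was at 126, 63.2 and 30.6 CPM against 183, 164 and 205 CPM. Thbs1, the gene of thrombospondin 1, was at 755, 1082 and 197 CPM against 1166, 2298 and 2494 CPM, and the gap between m54 and m5 was narrow. No matrix protease or inhibitor of the 26 tested reached p under 0.05 or had groups that did not overlap, and their median was -0.50. Their median level in log2(CPM + 1) was 4.14, 4.76 and 5.36 in m28, m54 and m107. It was 4.40, 5.42 and 6.28 in m5, m12 and m60, so m54 and m107 lay above the biphasic m5.

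At an unadjusted p under 0.05, 1.81% of all tested genes were higher and 2.55% lower. Of 32 tested receptor tyrosine kinases and ligands outside the EGF and IGF families, 3 were higher (Ddr1, Fgf18 and Pdgfb) and 2 lower (Kitl and Ryk). Ddr1, a collagen receptor, was at 408, 677 and 759 CPM against 359, 278 and 186 CPM. Pdgfb, a ligand of the PDGF receptors, was at 64.2, 39.0 and 49.7 CPM against 27.8, 1.47 and 8.37 CPM, and Fgf18, a fibroblast growth factor, was at 21.7, 36.3 and 73.0 CPM against 20.9, 6.28 and 2.85 CPM. The m5 value of Fgf18 lay close under that of m28. Egfr, the epidermal growth factor receptor, was at 433, 131 and 187 CPM against 125, 222 and 111 CPM, a difference of 0.59 with a 95% interval of -0.55 to 1.74. The groups overlapped, with m28 the highest of the 6 lines.

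Of 39 tested semaphorins, ephrins and guidance genes, 1 was higher and 4 lower at an unadjusted p under 0.05, and the median over all 39 was 0.04. The shares over all tested genes were 1.81% higher and 2.55% lower. Sema3a, a secreted semaphorin, was at 87.6, 41.0 and 27.0 CPM against 212, 165 and 99.1 CPM, and Sema3e was at 33.04, 50.4 and 38.3 CPM against 73.3, 126 and 78.7 CPM. Slit2, a ligand of the Robo receptors, was at 7.39, 50.2 and 37.0 CPM against 461, 54.9 and 90.9 CPM. The groups did not overlap for these 3 genes, and for Slit2 the m54 and m12 values nearly met. In the list 4 of 39 were lower without overlap, where 6.01% of all tested genes were.

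YAP and TAZ are the effectors of the Hippo pathway, which is often altered in mesothelioma. At an unadjusted p under 0.05, 1.81% of all tested genes were higher and 2.55% lower. Among the 26 tested targets of YAP and TAZ, with a median of 0.02, 2 were higher and 0 lower at that p. These were Dock5, an activator of Rac, at 235, 294 and 576 CPM against 153, 80.0 and 129 CPM, and Ajuba, a LIM protein that binds LATS kinases, at 396, 210.0 and 279 CPM against 203, 102 and 134 CPM. Both had groups that did not overlap, where 3.69% of all tested genes were higher without overlap. Of 17 tested mesothelioma tumor suppressors none reached p under 0.05. Trp53, disrupted in 1 allele in the mouse of every line, was at 133, 152 and 122 CPM against 179, 155 and 249 CPM (difference -0.49, 95% interval -1.08 to 0.09). Its groups did not overlap, with the sarcomatoid lines lower, as for 6.01% of all tested genes. By immunoblot the study found p53 protein undetectable in several of its MM lines, which these RNA levels do not show. Bap1 was at 122 to 159 CPM in the sarcomatoid and 84.1 to 205 CPM in the biphasic lines, Nf2 at 143 to 151 CPM and 122 to 144 CPM, and Cdkn2a at 222 to 275 CPM and 223 to 293 CPM.

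Other genes named by the study overlapped between the histologies. Igf1r, the receptor of insulin-like growth factor 1, was at 31.5 to 124 CPM in the sarcomatoid and 75.4 to 144 CPM in the biphasic lines. Ctnnb1, the gene of beta-catenin, was at 530.0 to 921 CPM and 439 to 817 CPM, Cdkn2b, a cyclin-dependent kinase inhibitor, at 29.4 to 59.5 CPM and 21.6 to 62.9 CPM, Itgb1, an integrin subunit, at 986 to 1606 CPM and 1055 to 1414 CPM, and Slc31a1, a copper transporter, at 42.2 to 85.2 CPM and 27.0 to 67.9 CPM.

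Hox genes, which record position along the body axis, were mostly lower in the sarcomatoid lines. Of 37 listed 26 were tested, with a median of -0.47, against -0.05 over all tested genes. The difference was below 0 for 20 and above for 6, where 55.2% of all tested genes were below 0. Without m5 the Hox median was -0.75. At an unadjusted p under 0.05 were 3 lower and 0 higher, against 2.55% and 1.81% of all tested genes. In either direction there were 6 without m5, 2 without m12 or m107, and 1 without m28 or m60. The 3 were Hoxc10, Hoxc9 at 1.40, 7.35 and 1.80 CPM against 5.23, 13.97 and 11.9 CPM, and Hoxa10 at 8.53, 5.27 and 16.5 CPM against 16.001, 22.1 and 25.6 CPM. Many Hox genes were at a few CPM, and only 11 averaged 10 CPM or more. Of those 11, 7 had a difference below 0 and 4 above, with a median of -0.40. The lean was thus less clear among the Hox genes at higher levels. Neighbours of a Hox cluster share control regions and are not independent of each other. Of 29 tested mesoderm and serosal transcription factors 2 were higher (Wt1 and Klf2) and 2 lower (Foxf1 and Sox11) at an unadjusted p under 0.05. Foxf1, a forkhead factor of visceral mesoderm, was at 0.666, 5.68 and 2.87 CPM against 11.1, 7.82 and 42.7 CPM. Sox11, a factor of progenitor cells, was at 0.799, 1.73 and 1.53 CPM against 29.5, 48.3 and 1.65 CPM, so m60 was with the sarcomatoid lines.

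Genes of DNA replication and mitosis had mostly lower values in the sarcomatoid group, but few were near the threshold. Of 37 tested 34 had a difference below 0, with a median of -0.42, and 1 (Cdk1) was lower at an unadjusted p under 0.05. Of all tested genes 55.2% had a difference below 0, with a median of -0.05, and 2.55% were lower at that p. Cdk1, the kinase that drives entry into mitosis, was at 141, 145 and 67.8 CPM against 252, 246 and 156 CPM, and it lies on chromosome 10. Mcm7, a subunit of the replicative helicase, was at 220.5, 253 and 141 CPM against 308, 340.2 and 264 CPM. Mki67, a marker of cycling cells, was at 562, 397 and 184 CPM against 596, 539.8 and 325 CPM, and its groups overlapped. Without m107 the median was -0.07, with 21 genes below 0 and 16 above. It was -0.17 without m5 and m12, with 29 below 0 and 8 above, and -0.15 with sample weights, with 24 below 0 and 13 above.

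Immune and metabolic lists held few genes at an unadjusted p under 0.05, and 0 of their members passed the adjusted threshold. All tested genes gave 1.81% higher and 2.55% lower at the unadjusted p. Of 21 tested chemokines and cytokines 2 were lower, Cxcl12, the ligand of CXCR4, at 316, 386 and 73.6 CPM against 875, 482 and 518 CPM, and Mif, a cytokine gene on chromosome 10 with processed copies elsewhere, at 234, 218 and 85.1 CPM against 254, 451 and 376 CPM. In the list of MHC class I and antigen processing, H2-T23, the mouse Qa-1 gene with close relatives that can share its reads, was at 4.53, 5.34 and 4.85 CPM against 10.2, 14.9996 and 12.4 CPM, and Erap1, which trims peptides for class I, was at 56.4, 61.6 and 40.1 CPM against 27.2, 21.4 and 31.3 CPM. Steap3, a ferrireductase of the iron list, was at 1.07, 0.832 and 1.44 CPM against 3.604, 9.60 and 6.59 CPM. Ugp2, which makes the UDP-glucose from which hyaluronan is built, was at 189, 114 and 217 CPM against 89.7, 79.2 and 87.4 CPM. Cyp1b1, a cytochrome P450 of xenobiotic metabolism, was at 850.5, 800.5 and 953 CPM against 264, 327 and 760.0 CPM. No member of the lists of oxidative phosphorylation (31 tested), ribosomal proteins (35), sterol and fatty acid synthesis (30) or immune checkpoint ligands (11) was at an unadjusted p under 0.05.

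**Figure D5:**
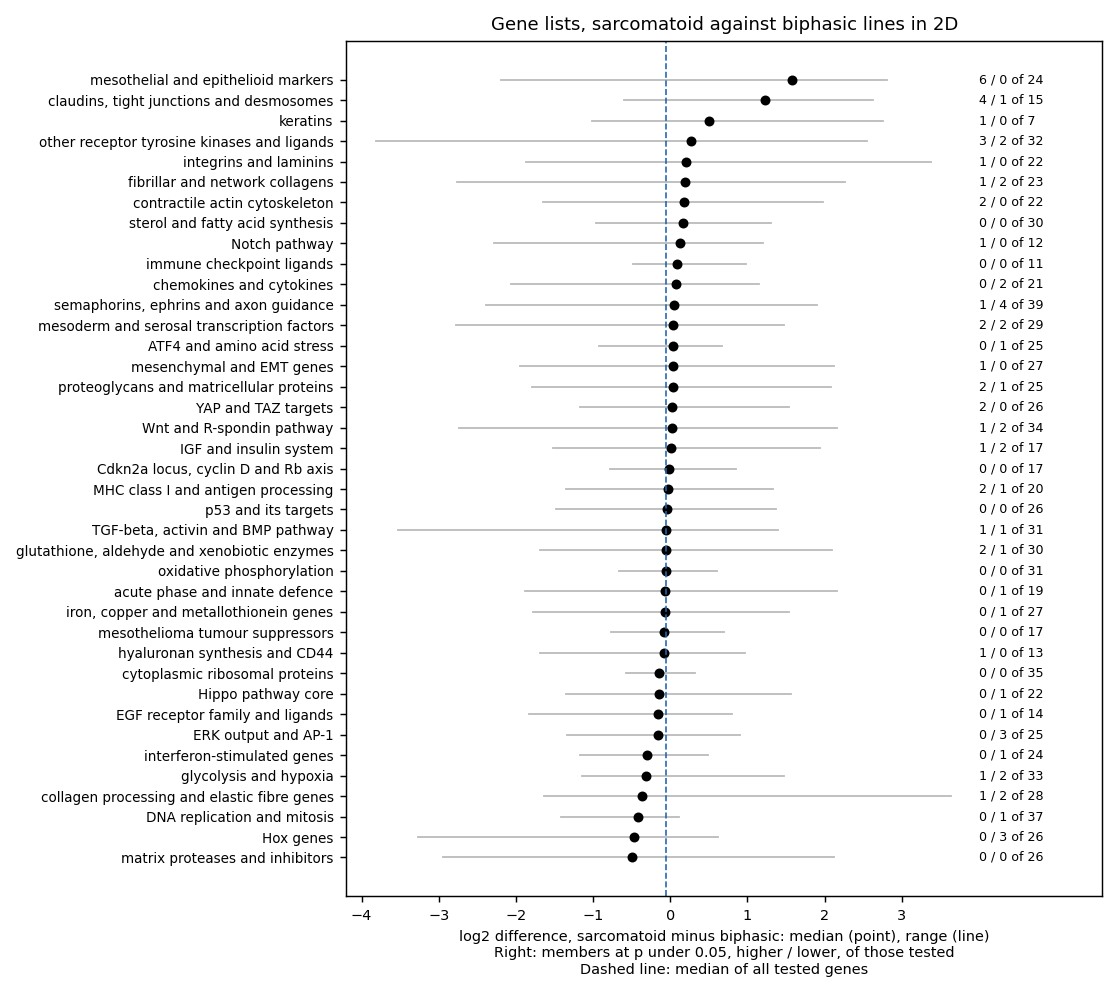
Median difference (point) and range (line) of the tested members of 39 gene lists, sarcomatoid minus biphasic in 2D, with the number of members at an unadjusted limma p under 0.05 in each direction. The dashed line is the median of all tested genes, -0.05. Mesothelial markers (1.58) and junction genes (1.22) stand at the top, and matrix proteases (-0.50) and Hox genes (-0.47) at the bottom.

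DESeq2 passed some genes that were near 0 CPM in 1 histology, named here after their values were seen. Nudt11, a phosphohydrolase gene, was at 1.80, 6.86 and 16.1 CPM in the sarcomatoid lines and at 0.0198, 0.0733 and 0 CPM in the biphasic lines (DESeq2 adjusted p = 1.22e-05). Plagl1, an imprinted zinc finger gene on chromosome 10, had 0 CPM in all 3 sarcomatoid lines and 39.3, 5.86 and 1.46 CPM in m5, m12 and m60 (DESeq2 adjusted p = 3.87e-05). Lgals7, a galectin of stratified epithelia, was at 9.46, 5.06 and 45.5 CPM against 0.198, 1.42 and 0.571 CPM (DESeq2 adjusted p = 0.00215). For Nudt11 the groups did not overlap in 3D either. Plagl1 had 0 CPM in the 3 sarcomatoid 3D libraries and 0.0268, 6.12 and 0.674 CPM in 3D m5, m12 and m60, where the m5 value is below its floor of 3 reads (0.0804 CPM), so 3D m5 is not told apart from the sarcomatoid libraries. Of the 49 genes DESeq2 passed, 24 are among the 30 taken by the rule, and 48 had a limma p under 0.05.

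In the 3D organoid libraries of the same lines, 67 of the 429 genes higher in all sarcomatoid 2D lines (15.6%) had groups that did not overlap in that direction and 2 in the other, where 5.34% of all tested genes were higher in all 3 sarcomatoid 3D libraries. Of the 699 lower in 2D, 69 (9.87%) did not overlap in that direction in 3D and 8 in the other, against 5.11% of all tested genes. These are the same tumors, not further replicates, and 3D m12 lacked Wt1 (0.0371 CPM) and Vim (0.668 CPM). The interaction of histology and culture passed 0 of 11630 genes with limma, with 643 at an unadjusted p under 0.05. The 2D library of m67 was nearer to the biphasic mean for 66.9% of the genes higher and 70.8% of those lower in the sarcomatoid lines, against 59.7% of all tested genes.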

How the data were processed

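The authors deposited 1 table of CPM values, reads per gene per 1000000 reads in the protein-coding genes of a library, made from directional libraries with FastQC 0.10.0, Trim Galore 0.6.4, STAR 2.7.9a (GRCm39), HTSeq 0.12.4 and edgeR. Its columns of p-values, q-values and ranking for the authors' own 2D against 3D comparison were not used. All values (100%) were whole multiples of what 1 read is worth, within 0.001 of a read, so reads were recovered. Gene positions are from GENCODE vM39, matched for 21686 of 21884 genes.

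limma 3.58.1 (trend) was fitted to log2(CPM + 1) of the 6 libraries, two-sided, with Benjamini-Hochberg adjustment over all genes tested. It was also run on simulated reads with planted changes and a set spread between libraries. These reads lack the differences between lines seen here, so they do not check the results above. edgeR 4.0.16 and DESeq2 1.42.0 on the recovered reads were alternatives, beside other pseudocounts, filters, scalings, weights, thinned reads and libraries left out. Floors of 3 reads cover counting error only. Genes taken by the rule were the 15 of smallest p in each direction with a mean of at least 5 CPM and groups that do not overlap, the genes the study names, the mesothelial and EMT lists, and up to 4 members per direction of other lists; some are not reported here. The comparison, lists and rule were chosen with earlier results of these data known. Histology came from the study's summary of its mice, matched by line name.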

Additional observations from a re-analysis of the deposited data

How the results depend on the processing

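The count of genes past the adjusted threshold was 0 under limma with pseudocounts of 0.1 and 5, without a filter, with a mean of at least 10 CPM, with TMM scaling, quantile normalization, sample weights, 12 libraries with the line as a random effect, reads thinned to 11134018, and without m5 and m12, and it was 0 with edgeR. Leaving out 1 line gave 0 to 0. DESeq2 gave 49, and the cause of the gap between the tools was not tested. At an unadjusted p under 0.05 the 507 genes became 769 with DESeq2, 1911 with sample weights, 285 with 12 libraries, and 262 to 822 when 1 line was left out, lowest without m12 and highest without m28. The estimate of the sample weights stopped before it converged, with m54 at a weight of 13.8 and the other lines at 1.10 or less, so the values under it are uncertain. Of 1306 values of 73 genes named with a difference, 1305 kept their direction. The exception was Egfr, at -0.10 with sample weights. In DESeq2 27 of these genes passed the threshold. The alternatives for the medians of chromosome 10, the mesothelial markers and the replication genes were chosen after seeing the data. The Cldn15 to Vim difference was 1.32 to 4.18 when 1 line was left out. No paired analysis was possible because each line has 1 histology, so the groups share no line. With 3 tumors a group, differences smaller than the spread between lines are not detectable here.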
